A study of Homo sapiens with 35 samples.

Results

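A set of 9 genes of the MHC class I antigen presentation pathway were followed across the RNA-seq and ChIP-seq libraries of a study of the non-canonical NF-κB subunit p52 and the transcription factor ETS1 in U-87 MG, an established human glioblastoma cell line. They were taken by name, as HLA-B, HLA-C, HLA-E, HLA-F, B2M, TAP1, TAP2, PSMB8 and PSMB9 among the 62696 rows of the count table, and all 9 passed the filter on low counts, as did 16879 genes in all. RNA was measured in 12 libraries, 3 in each of 4 groups: untreated control cells, control cells given TWEAK (a TNF-family cytokine that activates non-canonical NF-κB signalling) at 10 ng/ml for 48 h, and ETS1 KD and NFKB2 KD cells given the same TWEAK. The knockdowns (KD) were made by CRISPR with a lentiviral vector, NFKB2 encodes the precursor of p52, and every KD sample used here had TWEAK. ChIP-seq peaks came from 8 p52 libraries (untreated control, TWEAK control, and ETS1 KD by guide 1 and by guide 2 with TWEAK), 4 ETS1 libraries (control with and without TWEAK) and 8 RNA Pol II libraries (the same 4 groups as the RNA), 2 in each condition. The guide was named for the p52 libraries and not for the RNA-seq or RNA Pol II libraries.

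MHC class I molecules show peptides from inside the cell to CD8+ T cells and natural killer cells. Cytosolic proteins are cut into peptides by the proteasome, including the interferon-inducible immunoproteasome subunits PSMB8 and PSMB9, and the TAP1–TAP2 transporter carries the peptides into the endoplasmic reticulum. There they are loaded onto a heavy chain (the classical HLA-B and HLA-C, or the less variable HLA-E and HLA-F) that is paired with the light chain β2-microglobulin, the product of B2M. Promoters of several of these genes are known to hold a κB element, bound by NF-κB dimers, beside an interferon-stimulated response element (ISRE).

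The gene identifiers and hg38 spans are those of GENCODE 44. B2M (ENSG00000166710) lies on the plus strand at chr15:44711358-44718851, and the other members lie in the MHC region of chromosome 6. Of the heavy chains, HLA-F (ENSG00000204642) spans chr6:29722775-29738528 and HLA-E (ENSG00000204592) chr6:30489509-30494194 on the plus strand, and HLA-C (ENSG00000204525) spans chr6:31268749-31272130 and HLA-B (ENSG00000234745) chr6:31353872-31367067 on the minus strand. The transporter and immunoproteasome genes are neighbours: TAP2 (ENSG00000204267) at chr6:32821833-32838739, PSMB8 (ENSG00000204264) at chr6:32840717-32844679 and TAP1 (ENSG00000168394) at chr6:32845209-32853816 lie on the minus strand, and PSMB9 (ENSG00000240065) at chr6:32844136-32859851 lies on the plus strand.

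The promoters of the members in which a κB match was found are shown first, because p52 peaks lay on some of these matches and not on others. Each sequence runs from 250 bases before to 50 bases after the start site, 5′ to 3′ on the strand of the gene (RefSeq, GRCh38.p14), with matches to the κB consensus on either strand in capitals.
B2M, chr15:44711267-44711566, plus strand: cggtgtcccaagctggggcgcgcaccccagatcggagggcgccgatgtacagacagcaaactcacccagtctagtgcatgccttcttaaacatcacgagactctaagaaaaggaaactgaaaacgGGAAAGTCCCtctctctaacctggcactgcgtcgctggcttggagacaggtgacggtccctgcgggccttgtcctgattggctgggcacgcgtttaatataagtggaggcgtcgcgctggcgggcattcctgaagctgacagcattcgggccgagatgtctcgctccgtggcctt
HLA-B, chr6:31357130-31357429, minus strand: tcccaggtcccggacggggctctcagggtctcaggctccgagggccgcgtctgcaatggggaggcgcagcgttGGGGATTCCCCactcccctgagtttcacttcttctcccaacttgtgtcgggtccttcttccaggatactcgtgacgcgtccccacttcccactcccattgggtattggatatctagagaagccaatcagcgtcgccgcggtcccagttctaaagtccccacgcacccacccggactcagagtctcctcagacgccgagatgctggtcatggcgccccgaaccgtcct
HLA-C, chr6:31272043-31272342, minus strand: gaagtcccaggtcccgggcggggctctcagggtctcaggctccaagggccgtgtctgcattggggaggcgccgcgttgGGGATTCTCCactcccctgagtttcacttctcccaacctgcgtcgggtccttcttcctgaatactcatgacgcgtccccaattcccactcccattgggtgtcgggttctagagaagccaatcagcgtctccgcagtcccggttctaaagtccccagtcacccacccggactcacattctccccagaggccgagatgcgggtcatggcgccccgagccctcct
TAP1, chr6:32853655-32853954, minus strand: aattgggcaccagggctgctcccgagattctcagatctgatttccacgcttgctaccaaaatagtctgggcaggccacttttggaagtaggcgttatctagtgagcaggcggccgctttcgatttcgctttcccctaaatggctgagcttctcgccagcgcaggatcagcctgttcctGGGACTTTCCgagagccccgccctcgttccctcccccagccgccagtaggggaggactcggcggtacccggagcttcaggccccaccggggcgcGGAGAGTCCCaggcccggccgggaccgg
A promoter sequence was at hand for 8 of the 9 members, all but HLA-E, and 4 of the 8 held a κB match, against 11.3% of all 35116 promoters in the table. In B2M the match began 125 bases upstream of the start site, in HLA-B the overlapping pair of matches began 177 bases and in HLA-C 172 bases upstream, and TAP1 held matches starting 72 bases upstream and 22 bases downstream. The ISRE core, GAAA repeated with 2 bases of any kind between, searched on both strands, was matched in 5 of the 8 (B2M, HLA-F, PSMB8, TAP1 and TAP2) against 3.57% of all promoters. In B2M 2 overlapping ISRE core matches began 144 and 138 bases upstream of the start site, just before the κB match. The CCAAT box was matched in 6 of 8 against 34.6% of all promoters. The exact letters CCGGAA, a form of ETS site, were matched in 0 of 8 against 17.2%. The CCAAT matches of TAP1 and PSMB9 were the same bases, chr6:32853949-32853953, where their promoter windows overlap. These matches describe letters in these windows and do not show that a factor bound there. Other forms of ISRE and ETS sites were not searched, so a promoter without a match may still hold such a site.

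The 12 RNA-seq libraries held 28384201 to 40192606 counts. The labels gave the replicates only as numbers, and the p-values measure the spread between these libraries. Levels are given as CPM, the counts of a gene scaled to a fixed library total. The targeted genes followed their labels: ETS1 was at 71.9 to 87.6 CPM in TWEAK control cells and 28.2 to 37.8 CPM in ETS1 KD cells, and NFKB2 was at 235 to 346 CPM in TWEAK control cells and 75.7 to 104.9 CPM in NFKB2 KD cells, which was still above the 49.6 to 66.6 CPM of untreated cells. The glioblastoma line markers VIM, CD44, NES, FN1 and TNC lay at 76.6 CPM or higher in every library. Of the immune cell markers, PTPRC, CD3E and AIF1 were at 0.0922 CPM or lower and CD14 at 0.502 CPM or lower in every library, while ITGAM went from at most 0.0348 CPM in untreated cells to 0.789 to 1.92 CPM in the TWEAK-treated groups. Of the endothelial markers, CDH5 stayed at 0.0996 CPM or lower, PECAM1 at 0.705 to 1.58 CPM and VWF at 1.11 to 3.91 CPM. Untreated control library 3 and NFKB2 KD library 2 stood farthest from their groups, with an SD of the log2 deviation over all genes of 0.3545 and 0.365 against 0.213 to 0.331 in the other 10. In both, GC-rich genes lay above the group mean and GC-poor genes below it. Calls of the 9 members that changed without a library are given with and without it, and this was not checked for other genes.

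Per kb of annotated exon, the level in untreated cells was highest for B2M at 282 ± 9.10 CPM per kb (SD, n = 3), the light chain shared by all class I molecules. HLA-B followed at 30.4 ± 2.59 CPM per kb and HLA-E at 20.4 ± 0.374 CPM per kb. The immunoproteasome subunit PSMB8 was at 10.9 ± 0.485 CPM per kb, and its partner PSMB9 and the transporter subunit TAP1 were alike at 7.35 ± 0.696 and 7.31 ± 0.277 CPM per kb, closer than their spread. HLA-C lay at 4.20 ± 0.568 CPM per kb, HLA-F at 2.77 ± 0.127 CPM per kb and TAP2 at 0.271 ± 0.0109 CPM per kb. B2M was thus measured from at least 26101 counts a library, and TAP2 from 77 to 164. HLA genes are alike in parts of their sequence and vary between individuals. Reads of HLA-B, HLA-C, HLA-E and HLA-F may thus have been lost or assigned to the wrong gene, and levels between them are uncertain. HLA-B shared 30.7% of its annotated exon bases with DHFRP2 on the same strand, which lowers its level per kb if those bases drew few counts. TAP2 shared 35.8% of the exon bases of its MANE transcript (the reference transcript agreed by RefSeq and Ensembl) with a readthrough gene on the same strand, and HLA-F shared 42.0%, HLA-B 23.7% and TAP1 21.5% with genes on the opposite strand.

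The first comparison asked what TWEAK did in control cells. HLA-B and B2M rose, while HLA-C, HLA-E, PSMB8 and PSMB9 overlapped between the groups. HLA-B was at 134.9, 132.9 and 154.5 CPM in the untreated libraries and at 216.3, 248.6 and 231.2 CPM with TWEAK. All 3 TWEAK libraries were above all 3 untreated libraries, and the log2 fold change was 0.72 ± 0.14 (SE; 1.65-fold; edgeR quasi-likelihood test, adjusted p = 0.0135). B2M was at 907, 880 and 850 CPM without and at 1135, 1186 and 1094 CPM with TWEAK, again with no overlap. Its log2 fold change was 0.37 ± 0.09 (1.30-fold; edgeR, adjusted p = 0.0432). The other members with no overlap were the transporter subunits and HLA-F, but they did not pass the test. TAP1 was at 34.9, 35.8 and 33.2 CPM untreated and at 44.3, 44.7 and 44.6 CPM with TWEAK (log2 fold change 0.36 ± 0.13; edgeR, adjusted p = 0.184). TAP2 was at 2.68, 2.89 and 2.84 CPM untreated and at 3.59, 3.63 and 3.33 CPM with TWEAK (log2 fold change 0.33 ± 0.15; edgeR, adjusted p = 0.348). HLA-F was at 12.4, 11.3 and 12.1 CPM untreated and at 15, 16.6 and 16.7 CPM with TWEAK (log2 fold change 0.43 ± 0.17; edgeR, adjusted p = 0.246). These 3 genes thus sat 1.25- to 1.35-fold higher, a size of change like that of B2M, whose SE was smaller. HLA-C, HLA-E, PSMB8 and PSMB9 had log2 fold changes of 0.11, 0.09, 0.07 and -0.06, with 95% intervals that together ran from -0.45 to 0.44. In these bulk libraries, more expressing cells and more RNA per cell cannot be told apart.

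Thus 2 of 9 members were called higher and 0 lower, where 1.55% of all genes tested were called higher and 1.53% lower, and 5 of 9 had all TWEAK libraries above all untreated ones, where 11.0% of all genes did. The median log2 fold change was 0.33 over the 9 and 0.02 over all genes. Both calls were close to the threshold. Without untreated control library 1 or 2, or TWEAK control library 2 or 3, HLA-B kept a log2 fold change of 0.67 to 0.72 at an adjusted p of 0.0669 to 0.0964 (edgeR), while the B2M call held in 2 of the 12 fits that left out a library, those without NFKB2 KD library 2 or 3 (adjusted p of 0.0521 to 0.189 in the other 10). The B2M call was also lost with other scalings and without the filter on low counts (adjusted p = 0.0502 to 0.338, edgeR), while DESeq2 kept it (adjusted p = 0.00174). Without NFKB2 KD library 2, HLA-F (adjusted p = 0.0337) and TAP1 (adjusted p = 0.0412, edgeR) were called as well.

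**Figure D1:**
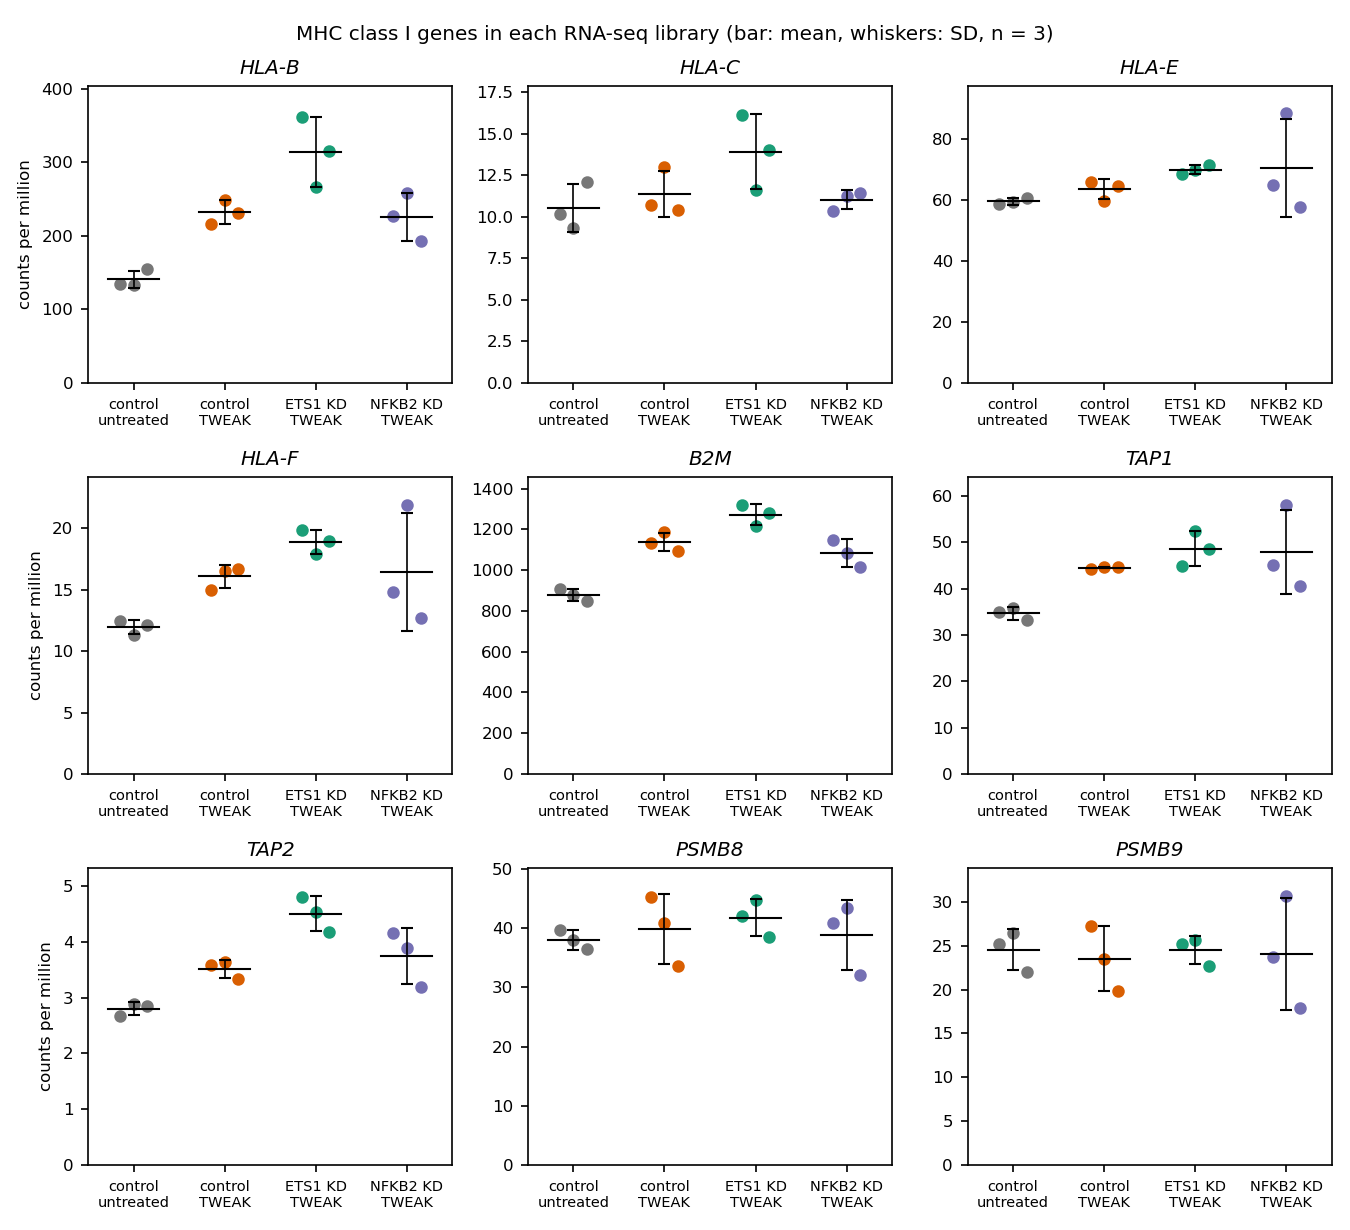
CPM of each of the 9 genes (y axis, linear, from 0) in the 12 RNA-seq libraries, grouped by condition (x axis), with 1 point per library, the mean as a bar and the SD as whiskers (n = 3). HLA-B, B2M, TAP1, TAP2 and HLA-F lie higher in every TWEAK-treated control library than in any untreated library, whereas PSMB8 and PSMB9 overlap across all 4 groups.

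Of 20 other genes of class I presentation, 3 rose with TWEAK and 0 fell, where 1.55% of all genes were called higher and 1.53% lower: RFX5, a subunit of the factor that binds the X box of MHC promoters (log2 fold change 0.69 ± 0.13, edgeR, adjusted p = 0.0115), the interferon regulatory factor IRF1 (0.70 ± 0.13, adjusted p = 0.0133), and the peptide-trimming enzyme ERAP1 (0.62 ± 0.14, adjusted p = 0.0331). The proteasome activator PSME2 (0.52 ± 0.14, adjusted p = 0.0665) and the immunoproteasome subunit PSMB10 (0.55 ± 0.16, adjusted p = 0.0995, edgeR) did not pass. Of 14 constitutive proteasome genes 0 were called in either direction (edgeR; 0 had an unadjusted p under 0.05), with a median log2 fold change of 0.16. Of 12 interferon signalling genes 10 passed the filter and 0 were called (edgeR; 2 had an unadjusted p under 0.05), and IFNB1 and IFNG were at 0 counts in all 12 libraries. NLRC5, the class I transactivator, was at 29.9 to 46.0 CPM untreated and 27.9 to 38.6 CPM with TWEAK. Among 10 class II genes, which serve presentation to CD4+ T cells, HLA-DQA1 rose (log2 fold change 1.12 ± 0.22, edgeR, adjusted p = 0.0174) and HLA-DMB fell by 0.97 on the log2 scale (adjusted p = 0.0432). Of the 5 NF-κB subunit genes, NFKB2 (log2 fold change 2.35 ± 0.17, adjusted p = 2.92e-05) and RELB (1.36 ± 0.15, adjusted p = 0.000437, edgeR) rose. When either KD was set against control cells under TWEAK, 0 of the 20 class I pathway genes were called (edgeR; 1 and 2 had an unadjusted p under 0.05).

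The next comparison asked how the members stood in ETS1 KD cells against control cells, both with TWEAK. None of the 9 was called (edgeR; 2 had an unadjusted p under 0.05), where 0.255% of all genes were called higher and 1.13% lower, and all 9 log2 fold changes lay above 0. HLA-B was at 362.1, 266.9 and 315.1 CPM in the ETS1 KD libraries, above each of the 3 TWEAK control libraries given before. Its log2 fold change of 0.44 ± 0.14 (95% interval 0.14 to 0.73) missed the threshold (edgeR, adjusted p = 0.174). B2M was at 1322, 1217 and 1279 CPM (log2 fold change 0.16 ± 0.09, edgeR, adjusted p = 0.547), and TAP2 at 4.81, 4.54 and 4.18 CPM (0.36 ± 0.15, adjusted p = 0.346). Together with HLA-E, HLA-F and TAP1, 6 of 9 members had all ETS1 KD libraries above all TWEAK control libraries, where 9.57% of all genes did. The median log2 fold change was 0.16 over the 9 and 0.01 over all genes. Other lists also lay mostly above 0 in this comparison, with 10 of 10 class II genes (median 0.22) and 12 of 14 constitutive proteasome genes (median 0.13), against 10 of 20 other class I pathway genes. Of the class II genes HLA-DQA1 was called (log2 fold change 1.06, edgeR, adjusted p = 0.0282). With an offset for GC content and gene length, HLA-B was called (log2 fold change 0.49, edgeR, adjusted p = 0.034), but that offset also moved the median of all genes to 0.09 and the share of calls that were higher from 18.4% to 47.0%.

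In NFKB2 KD cells against control cells, both with TWEAK, 0 of 9 members were called (edgeR; 0 had an unadjusted p under 0.05), but only 5 of all genes were, 0.00592% higher and 0.0237% lower (3 calls, 33.3% of them higher in place of 20%, with library totals as the only scaling). HLA-B was at 226.7, 258.0 and 192.7 CPM and B2M at 1150, 1085 and 1015 CPM, ranges that overlapped those of the TWEAK control cells. The difference for HLA-B was -0.04 with a 95% interval of -0.33 to 0.26, and for B2M -0.07 with an interval of -0.27 to 0.12. Over the 9 members the log2 fold changes ran from -0.07 to 0.15, and every member overlapped between the groups. Of all genes 3.05% lay wholly above the control, and the share wholly below is not given here. NFKB2 KD library 2 was the highest of its group for all members but HLA-C, B2M and TAP2, and NFKB2 KD library 3 the lowest for all but HLA-C. For TAP1 these were 58.1 and 40.6 CPM, with 45.2 CPM in library 1, and for PSMB9 30.7 and 18.0 CPM, with 23.7 CPM in library 1. The cause of this spread was not tested.

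**Figure D2:**
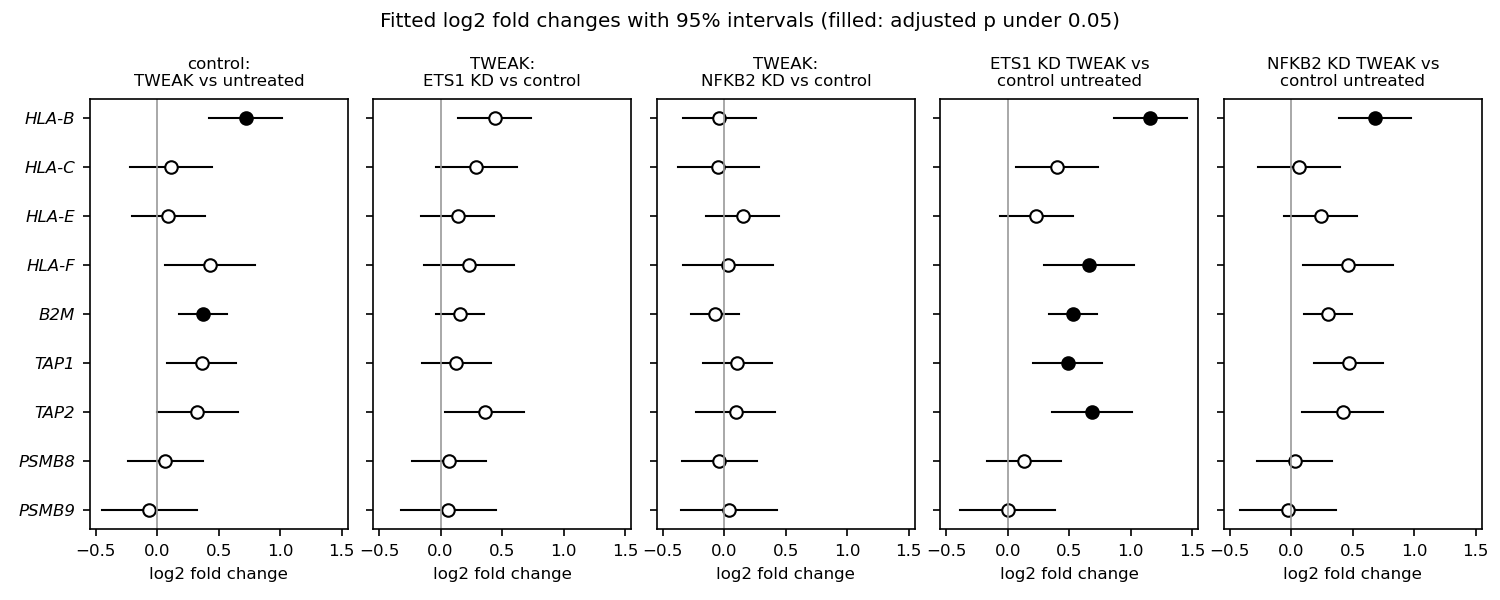
Log2 fold changes (x axis) of the 9 genes (rows) in 5 comparisons (panels), with 95% intervals from the edgeR fit over all 12 libraries and filled circles where the adjusted p was under 0.05. HLA-B and B2M are filled for TWEAK in control cells, and no member is filled in either comparison of KD with control cells. Against untreated cells, 5 members are filled for ETS1 KD with TWEAK and only HLA-B for NFKB2 KD with TWEAK.

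Each KD group was also set against the untreated control cells, the same 3 libraries as in the TWEAK comparison, so that these values are not independent of it. In ETS1 KD cells with TWEAK, 5 of 9 members were called higher and 0 lower, where 6.22% of all genes were called higher and 7.61% lower. HLA-B was 2.24-fold higher (log2 fold change 1.16 ± 0.14, edgeR, adjusted p = 0.000246), B2M 1.45-fold (0.53 ± 0.09, adjusted p = 0.00213) and TAP2 1.61-fold (0.68 ± 0.15, adjusted p = 0.00979). These 3 calls held in each of the 12 fits that left out a library. HLA-F (log2 fold change 0.66 ± 0.17, adjusted p = 0.0215) and TAP1 (0.49 ± 0.13, adjusted p = 0.0249, edgeR) were called as well. The HLA-F call was lost without any of the 6 compared libraries (adjusted p = 0.0526 to 0.103), and the TAP1 call without any untreated library, ETS1 KD library 2 or 3 or TWEAK control library 2 (adjusted p = 0.0524 to 0.115). The GC and length offset moved the median of all genes in this comparison from 0.01 to 0.12 and the share of higher calls from 45.0% to 66.6%, and scaling by library totals moved that share to 31.5%. Under the offset the same 5 genes lay 0.59 to 1.26 above untreated cells on the log2 scale. In NFKB2 KD cells with TWEAK, HLA-B was 1.60-fold higher than in untreated cells (log2 fold change 0.68 ± 0.14, edgeR, adjusted p = 0.0462), 1 call of 9 where 0.409% of all genes were called higher and 0.196% lower. That call held without NFKB2 KD library 3 (adjusted p = 0.048) and in none of the other 11 fits that left out a library (adjusted p = 0.05 to 0.275). HLA-F, B2M, TAP1 and TAP2 had log2 fold changes of 0.46, 0.30, 0.47 and 0.42, with no overlap and no call, so that 5 of 9 members lay wholly above the untreated libraries, where 5.32% of all genes did. The study used cutoffs of p at most 0.05 before adjustment and a change of 1.5-fold or more on DESeq2 results. Applied here to the edgeR fit, they gave members higher in number as follows: 1 of 9 for TWEAK (3.30% of all genes), 0 for ETS1 KD (1.15%) and 0 for NFKB2 KD (1.26%) against control, 3 for ETS1 KD (5.69%) and 1 for NFKB2 KD (2.02%) against untreated, and 0 between the KDs (1.77%).

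Between the KDs, both with TWEAK, HLA-B was 1.39-fold higher in ETS1 KD than in NFKB2 KD cells (log2 fold change 0.48 ± 0.14, 95% interval 0.18 to 0.77, edgeR, adjusted p = 0.102) and B2M 1.17-fold (0.23 ± 0.09, adjusted p = 0.227), both without overlap. With HLA-C and TAP2, 4 of 9 members lay wholly higher in ETS1 KD cells, where 9.79% of all genes did. None of the 9 was called (edgeR; 3 had an unadjusted p under 0.05; DESeq2 called 1, HLA-B), where 0.533% of all genes were called higher and 1.40% lower. The offset moved the median of all genes from 0.02 to 0.12, the share of higher calls from 27.5% to 67.0%, and HLA-B to a call (0.62, adjusted p = 0.00817). Over the 12 libraries, the genes whose log2 CPM most resembled the mean standardised level of the 9 members were UBL4A (Pearson r = 0.962), MRGBP (0.952), SAPCD2 (0.947), CLPP (0.946) and NUDT8 (0.944), and the least alike were MEF2A (-0.952), GLCCI1 (-0.952) and LINC02035 (-0.947). The 12 points share groups and library-wide differences, such as those with GC content given above. These correlations thus only describe the libraries.

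p52 peaks at the members appeared with TWEAK. A gene was counted when a peak overlapped it or lay within 15 kb of a start site. In the untreated libraries, with 714 and 452 p52 peaks in all, 0 of 9 members had one, where 0.115% of protein-coding genes had a peak in both libraries. In the TWEAK control libraries, with 3579 and 11761 peaks, B2M and HLA-E had a peak in both, 2 of 9 members where 11.5% of protein-coding genes did. With 2 libraries a condition, the smallest two-sided exact p is 1 in 3, so no test was made.

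The strongest p52 peak at a member was at the B2M promoter. In TWEAK control libraries 1 and 2 it spanned chr15:44711197-44711590 and chr15:44711044-44711619, with fold enrichments over local background of 33.7 and 81.3, and ranked 37 of 3579 and 11 of 11761 peaks by q-value. Both summits fell at chr15:44711395, which is 122 bases upstream of the MANE start, inside the κB match printed in capitals above and 37 bases from another annotated B2M start. In ETS1 KD cells B2M was the 1 member with a peak in both libraries of each guide, where 5.02% and 11.7% of protein-coding genes had one. Within 1 kb of a start site B2M was the 1 member in TWEAK control and both guides, where 3.67%, 1.48% and 3.81% of protein-coding genes had a peak. Its promoter peak was present in all 4 libraries, with folds of 71.2 and 134.7 for guide 1 and 97.3 and 95.7 for guide 2, at ranks 5, 13, 12 and 17. The lowest KD library was below TWEAK control library 2, so the raw folds of KD and control overlapped. Peak numbers and folds differed between libraries (1387 to 4252 peaks in the KD libraries). Over the 184 protein-coding start sites with a p52 peak within 1 kb in all 6 TWEAK libraries, the median fold was 12.8 and 28.8 in the control and 9.45, 18.6, 17.4 and 16.4 in the KD libraries. Relative to that median, the B2M peak stood at 2.64 and 2.82 in the control libraries and at 7.53, 7.26, 5.60 and 5.82 in the KD libraries, without overlap. Its place among the 184 sites hardly moved. Of these sites, 96.2% and 97.8% lay below it in the control and 98.9%, 98.4%, 97.8% and 97.8% in the KD libraries. How many of the sites differed from the median in the same way was not computed. The labels list a separate input for control, guide 1 and guide 2 cells, each with TWEAK. The part of the input in the difference relative to the median was not tested.

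A weaker p52 peak lay downstream of B2M, with its summit at chr15:44728864 in both TWEAK control libraries (folds of 9.005 and 16.9). It was 17347 bases from the B2M start and 124 bases from the nearest start of TRIM69, a neighbouring ubiquitin ligase gene, and was called in 3 of the 4 KD libraries, all but guide 1 library 1, with folds of 6.67 to 10.5. TWEAK control library 2 and guide 1 library 2 also had a peak between them, with summits at chr15:44719557 and chr15:44719637 and folds of 7.61 and 6.90. TWEAK control library 2 had a further peak with its summit at chr15:44727449 (fold 4.01). The map of peaks around B2M shows that only the promoter peak was in every TWEAK library.

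**Figure D3:**
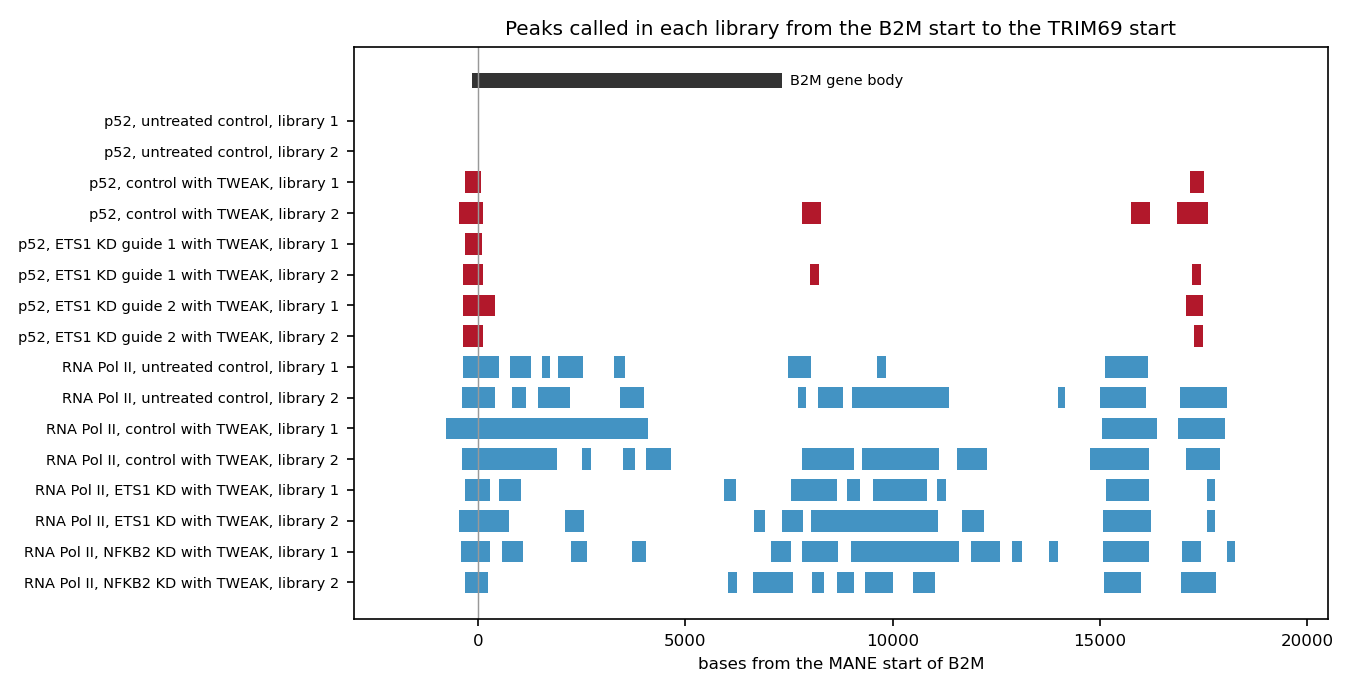
Peaks called in each p52 (red) and RNA Pol II (blue) library (rows) from 3 kb upstream to 20.5 kb downstream of the B2M MANE start (x axis, bases), with the annotated gene in black. The p52 libraries of untreated cells have no peak here, all 6 TWEAK libraries have 1 at the start, and RNA Pol II peaks sit at the start in all 8 libraries.

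The other p52 peaks at members were weaker. HLA-E had a peak outside the gene, with summits 7137 and 7098 bases downstream of its start, at chr6:30496525-30496722 and chr6:30496490-30496771 in the 2 TWEAK control libraries (folds of 5.80 and 8.24), and none in the 4 ETS1 KD libraries. It ranked 2900 of 3579 and 5234 of 11761, and the KD libraries held 1387, 3897, 4252 and 3938 peaks in all, 3 of them more than TWEAK control library 1 and each fewer than library 2. Around the summit of library 2 (chr6:30496532-30496682, hg38, plus strand) the reference holds a κB match, in capitals:
HLA-E downstream: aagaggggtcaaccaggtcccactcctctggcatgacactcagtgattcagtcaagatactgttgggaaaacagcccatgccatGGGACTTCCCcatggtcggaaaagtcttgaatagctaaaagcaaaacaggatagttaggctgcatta
At HLA-B, a p52 peak at the promoter was called in TWEAK control library 2 (chr6:31357257-31357617, fold 9.48, rank 4361), in guide 1 library 2 (fold 5.70) and in guide 2 library 1 (fold 7.08), and not in TWEAK control library 1. Its summit in TWEAK control library 2, at chr6:31357350, lay on the pair of κB matches of the HLA-B promoter. HLA-C, whose promoter carries a κB match at a similar distance from the start, had no p52 peak in any library, nor did HLA-F. Reads of HLA genes may have been lost or misplaced in ChIP-seq as in RNA-seq, so a missing peak at these genes shows little. Inside TAP2, outside the exons of its MANE transcript, a peak was called in TWEAK control library 2 (chr6:32833706-32834037, fold 11.9) and guide 2 library 1 (fold 5.41). Around its summit (chr6:32833828-32833978, plus strand) 3 overlapping κB matches lie in 1 run, in capitals:
TAP2 intragenic: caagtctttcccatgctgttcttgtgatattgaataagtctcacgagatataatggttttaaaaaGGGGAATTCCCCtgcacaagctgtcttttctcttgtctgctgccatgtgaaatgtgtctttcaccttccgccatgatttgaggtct
A peak at the start of PSMB9, which shares its upstream region with TAP1 (488 bases between their start sites on opposite strands), was called in TWEAK control library 2 only (chr6:32854153-32854369, fold 5.36, rank 9086). It did not reach the TAP1 κB matches. Because TAP1, TAP2, PSMB8 and PSMB9 lie side by side, these 2 peaks gave 4 of the 7 members with a p52 peak in TWEAK control library 2. The share of all protein-coding genes with a p52 peak in that single library was not computed. Of the 8 distinct p52 summits at members in that library, 5 had a κB match within 75 bases, against 66.0% of its 946 summits on chromosomes 6 and 15, and 68.1% of 263 in library 1. The share was 10.2% and 8.25% at the ETS1 summits and 3.80% and 4.25% at the RNA Pol II summits of TWEAK control cells.

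**Figure D4:**
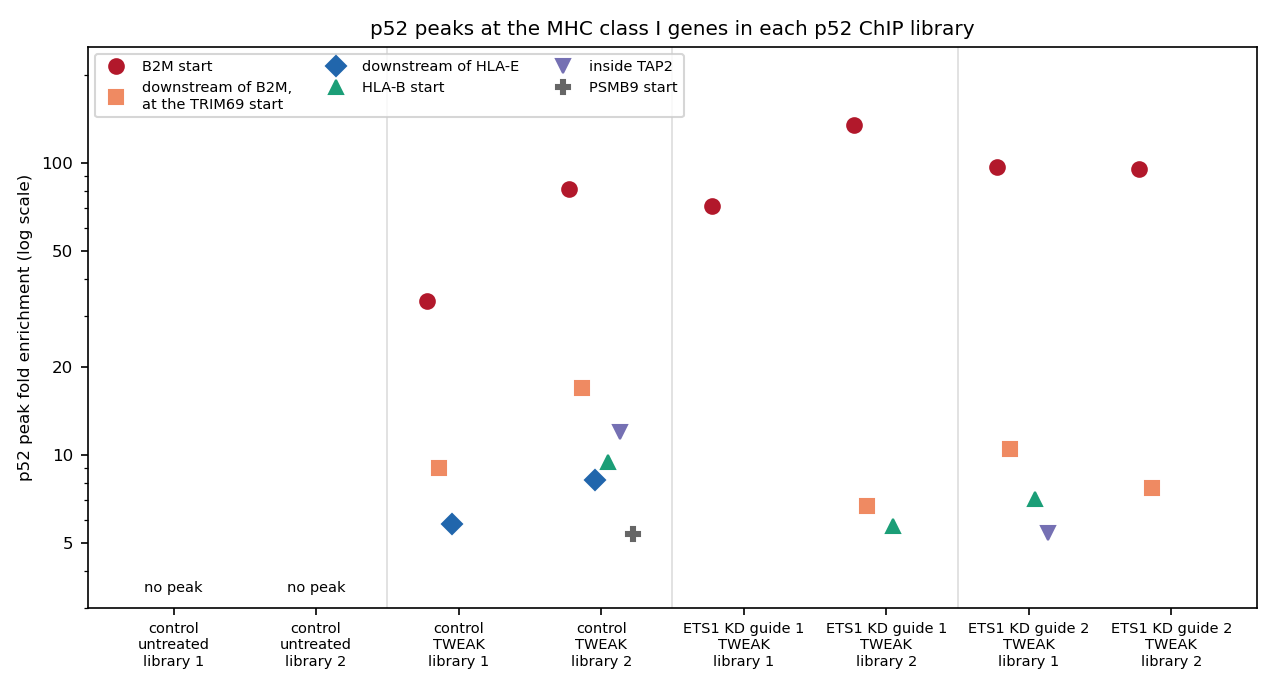
Fold enrichment (y axis, log scale) of the p52 peaks at 6 sites of the members in each of the 8 p52 libraries (x axis), with 1 symbol per called peak. The B2M start lies between 33.7 and 134.7 in all 6 TWEAK libraries, every other site lies at or below 16.9, and the untreated libraries have no peak.

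No ETS1 peak was called at any member in any of the 4 ETS1 libraries, which held 2066 to 4372 peaks. In the background, 7.17% of protein-coding genes had an ETS1 peak in both untreated libraries and 10.0% in both TWEAK libraries. A peak list cannot show binding below the calling threshold.

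RNA Pol II was called at the starts of HLA-B, HLA-E and B2M in all 8 libraries. The share of all protein-coding start sites with a peak in all 8 was not computed. HLA-B had folds of 10.0 and 13.5 in untreated cells and 30.3 and 20.02 with TWEAK, both TWEAK libraries above both untreated ones, where 17.0% of the 5824 protein-coding start sites with a peak in all 4 libraries were (3.25% lay below both). Relative to the median fold over 4337 start sites with a peak in all 8 libraries (7.38 to 15.7 per library), HLA-B stood at 1.17 and 0.860 untreated and at 1.93 and 1.645 with TWEAK. The share of start sites above both untreated libraries on this relative scale was not computed. B2M had folds of 28.7 and 42.4 untreated and 61.2 and 35.8 with TWEAK, which overlapped, and 3.35, 2.71, 3.89 and 2.95 relative to the median. HLA-E overlapped too, at 21.5 and 25.8 untreated and 41.6 and 24.7 with TWEAK. In the KD cells with TWEAK, HLA-B was at 8.72 and 13.5 in ETS1 KD and at 17.7 and 8.28 in NFKB2 KD, all below the TWEAK control libraries. So were 55.2% of 6259 start sites for ETS1 KD and 47.2% of 5523 for NFKB2 KD. Relative to the library median, HLA-B was at 0.931 and 1.38 in ETS1 KD and at 1.55 and 1.12 in NFKB2 KD, still below the TWEAK control. The RNA Pol II values of HLA-B in ETS1 KD cells thus lay below the TWEAK control, as most start sites did by raw fold. The share of start sites below on the relative scale was not computed. HLA-B RNA lay above the TWEAK control in every ETS1 KD library, but that difference was not called.

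**Figure D5:**
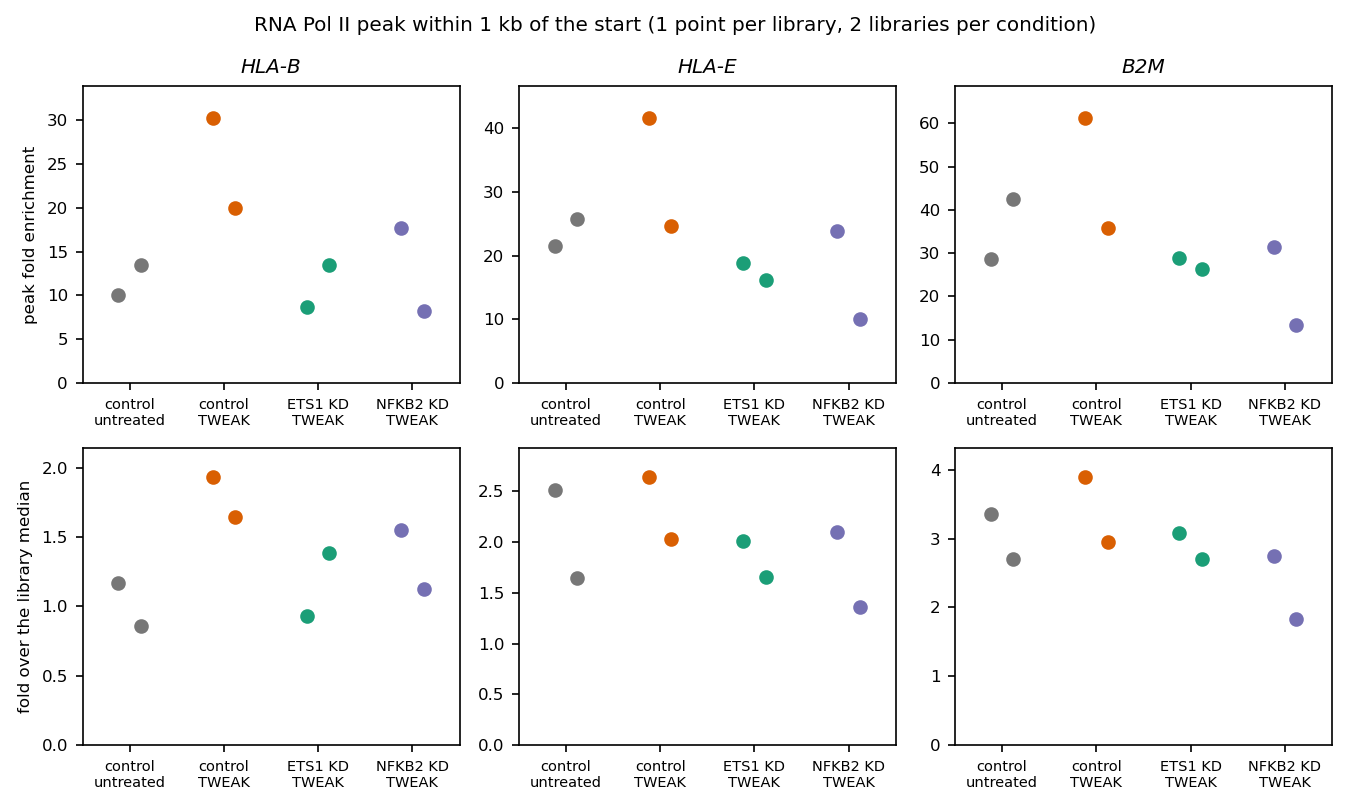
RNA Pol II peak fold enrichment within 1 kb of the start of HLA-B, HLA-E and B2M (top row) and the same fold divided by the library's median over 4337 shared start sites (bottom row), with 1 point per library and 2 libraries per condition (x axis). Of these genes, only HLA-B has both TWEAK control libraries above both untreated libraries, on either scale. By raw fold 17.0% of 5824 start sites did so, and the share on the relative scale was not computed.

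Of the remaining members, HLA-C had a start peak in untreated library 2 (fold 7.75), in both TWEAK control libraries (folds of 7.35 and 6.62) and in ETS1 KD library 2 (fold 9.93), which was above the lowest HLA-B folds. Counting peaks in both libraries, 3 of 9 members had one in untreated cells, 4 in TWEAK control cells (HLA-C in addition), 3 in cells with ETS1 KD and 7 with NFKB2 KD, where 49.1%, 55.9%, 50.4% and 43.2% of protein-coding genes did. Of the 7 in NFKB2 KD cells, 4 came from 1 site near the PSMB8 start (folds of 5.69 and 4.72) that lies within reach of TAP1, TAP2, PSMB8 and PSMB9, and the count was 3 among peaks with a −log10 q of at least 5. A peak at that site was also called in untreated library 2 (fold 5.81). The share of protein-coding genes with peaks of a −log10 q of at least 5 was not computed. HLA-F had a peak in 1 untreated (fold 4.50) and 1 TWEAK control library (fold 6.54) only.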

How the data were processed

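RNA-seq (poly(A)-selected) and ChIP-seq of U-87 MG cells were analysed from the processed files. The authors trimmed reads with Trimmomatic, aligned RNA reads to hg38 with STAR and deposited raw counts per gene from featureCounts. ChIP reads were aligned with Bowtie2 and peaks called per library with MACS2 against input, and replicates were not pooled. In the deposited peak lists the fold (a ratio over local background), the −log10 p and q and the display score are those of MACS2. Versions are not given in the sources used here, nor whether counting used strand, and the labels and the methods name different library kits. Reads of a gene and its antisense partner may therefore be mixed. No read depth is known for the peak lists. The 3 input libraries, all from cells with TWEAK, were not analysed here. None came from untreated or NFKB2 KD cells, and the input used for each ETS1 and RNA Pol II peak list is not stated.

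Counts were tested with edgeR 4.0.16 (TMM, filterByExpr, quasi-likelihood test, all 12 libraries in 1 fit, Benjamini-Hochberg over 16879 genes, called at an adjusted p under 0.05). Levels are CPM scaled by TMM, per kb of merged GENCODE 44 exons where genes are compared. Of 62649 gene identifiers, 62625 were in GENCODE 44. Fold changes are fitted, with SE and 95% intervals. No pair of replicates agreed within sampling noise. Scripts were tested on simulated data. Peaks were compared by overlap of at least 1 base with the gene or 15 kb around any start. κB, ISRE, ETS and CCAAT motifs were searched on both strands. The members, gene lists and tests were chosen with earlier results of these data known. All members are named, and of the other lists at most the 6 genes with the lowest adjusted p for TWEAK, besides ETS1, NFKB2 and the cell type markers. NLRC5, IFNB1 and IFNG were named after their values were seen. DESeq2 1.42.0, other scalings, filters, offsets, a replicate block and leaving out each library were tried.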

Additional observations from a re-analysis of the deposited data

How the results depend on the processing

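HLA-B kept its TWEAK call under all 9 other settings that used every library, and B2M under DESeq2 and the replicate block only. Members called higher with TWEAK numbered 1 in place of 2 under RLE or total-count scaling, without the filter, with the compared groups alone, under the GC and length offset, and by an unadjusted p of at most 0.05 with a 1.5-fold change. In ETS1 KD against control, 1 member in place of 0 was called under the offset, with or without the block. In ETS1 KD against untreated, 3 in place of 5 were called without the filter and by the 1.5-fold rule. In NFKB2 KD against untreated, 2 in place of 1 were called by DESeq2 and 0 under total counts, the compared groups alone or the block. Between the KDs, 1 in place of 0 was called by DESeq2 and 2 under the offset, with or without the block.

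Genes called in all moved further. For TWEAK they numbered 520, and 876 with DESeq2, 859 without the filter, 889 under the offset, 1341 with offset and block and 1197 by the 1.5-fold rule. For ETS1 KD against control they numbered 234, and 476, 469, 481, 850 and 957 in the same order. For NFKB2 KD against control they numbered 5, and 35 with DESeq2, 3 with total counts, 87 without the filter, 2 with the compared groups alone, 17 with offset and block and 379 by the 1.5-fold rule. For ETS1 KD against untreated they numbered 2334, and 3796 under the offset and 4789 with the block added. For NFKB2 KD against untreated they numbered 102, and 283 with DESeq2, 278 without the filter, 18 with the compared groups alone, 198 under the offset, 337 with the block added and 671 by the 1.5-fold rule. Between the KDs they numbered 327, and 760, 781, 104, 1135, 2153 and 1244 in that order. The cause was not tested.

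In NFKB2 KD against control, the log2 fold change turned from -0.07 to 0.00411 for B2M, from 0.03 to -0.068 for HLA-F and from 0.04 to -0.0353 for PSMB9 under the offset, and to 0.0042, -0.0819 and -0.0448 with the block added. None of these passed a test.

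Leaving out each of the 12 libraries gave 171 to 972 genes for TWEAK (0 to 4 members), 102 to 391 for ETS1 KD and 2 to 4 for NFKB2 KD against control (0 members), 1179 to 3074 (3 to 5 members) and 38 to 246 (0 to 1) for these against untreated, and 76 to 561 between the KDs (0 members). Uncalled log2 fold changes changed sign for PSMB8 (-0.0318 to 0.172) and PSMB9 (-0.181 to 0.0405) with TWEAK, for PSMB8 (-0.0471 to 0.166) and PSMB9 (-0.0506 to 0.18) in ETS1 KD against control, and in NFKB2 KD against control for HLA-B (-0.146 to 0.0863), HLA-C (-0.0877 to 0.0787), HLA-E (-0.0475 to 0.3), HLA-F (-0.226 to 0.215), TAP1 (-0.054 to 0.239), PSMB8 (-0.127 to 0.106) and PSMB9 (-0.173 to 0.238).

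The replicate numbers were not taken as pairing the libraries, since not every same-numbered pair of libraries deviated together: the correlations ran from -0.304 to 0.492 (median 0.165), over 0.1 in 9 of 18 pairs, against a median of -0.0947 and 12 of 36 pairs with different numbers. With the number as a block, 657 genes in place of 520 were called for TWEAK, and the HLA-B call in NFKB2 KD against untreated was lost (adjusted p = 0.0701, edgeR).

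With a p52 peak in either library in place of both, 7 members in place of 2 had one in TWEAK control, 2 in place of 1 for guide 1 and 6 in place of 1 for guide 2, which are also the highest counts from a single library (2 to 7, 1 to 2 and 1 to 6). TWEAK control had 1 with equal peak numbers or a 1 kb window. RNA Pol II in either library gave 9 in place of 3 untreated and 8 in place of 3 in ETS1 KD (3 to 9 and 3 to 8 from a single library), and NFKB2 KD had 3 in place of 7 with a −log10 q of at least 5 or equal peak numbers. The shares of all protein-coding genes with a peak in either library, in a single library, at the stricter q or with equal peak numbers were not computed. These counts therefore cannot be set against all genes. Peak lists without depth limit what a missing peak shows.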
